A study of Mus musculus with 8 samples.

Results

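The dystrophin glycoprotein complex was described in skeletal muscle through 8 genes taken as a fixed list from the deposited table, namely Dmd, Utrn, Dag1, Sgca, Sgcb, Sgcd, Dtna and Sspn. The list names genes by their role and uses no measured value, although it was drawn up with earlier results of these data known. All 8 were found among the 55487 genes of the table, and all 8 had at least 10 counts in every library, as did 15135 genes in all. The samples came from 8 male C57BL/6J mice aged 10 weeks that carried casts on both hindlimbs for 8 days and were injected intraperitoneally 2 times per day with K14Q MOTS-c, for a daily dose of 15 mg/kg. MOTS-c is a short peptide encoded within the mitochondrial 12S rRNA, and K14Q is its form with glutamine in place of lysine. Every mouse had the cast and the peptide, so the data hold 1 condition, and mice without either were not analysed here. The sample labels name vastus lateralis as the muscle, whereas the description of the series names gastrocnemius. The comparisons are therefore between genes within a mouse and between mice treated alike, and their p-values measure the spread between these 8 mice.

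The complex ties the actin cytoskeleton inside the muscle fibre to laminin in the basement membrane outside it. Dystrophin binds actin at 1 end and the transmembrane β-subunit of dystroglycan at the other, α-dystroglycan binds laminin through its sugar chains, and the sarcoglycans and sarcospan form a subcomplex in the membrane that holds dystroglycan in place. Loss of dystrophin or of a sarcoglycan leaves the membrane fragile under contraction and is known as the cause of Duchenne and limb-girdle muscular dystrophies. Utrophin is the paralog of dystrophin, which in adult muscle sits mainly at neuromuscular and myotendinous junctions and is also made by vessels and other cells.

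On GRCm38, the genes lie at chrX:82948870-85206141 on the plus strand for Dmd, chr10:12382188-12869365 on the minus strand for Utrn, chr9:108204634-108263958 on the minus strand for Dag1, chr11:94962791-94976327 on the minus strand for Sgca, chr5:73632749-73647790 on the minus strand for Sgcb, chr11:46896253-47988969 on the minus strand for Sgcd and chr6:145931641-145965223 on the plus strand for Sspn. Their exons together cover between 1735 bases for Sgca and 23801 bases for Dmd, so counts were divided by exon length wherever levels of different genes were compared. RefSeq promoter windows on GRCm38.p6 matched 7 of the 8 genes, without Dtna. The 250 bases before the RefSeq start site are given for 3 genes, because Dmd encodes the central protein of the complex, while Sgca and Sgcd, both sarcoglycans, were the ends of the order of levels per kb of exons. Capitals mark matches to the E-box (CANNTG, bound by myogenic basic helix-loop-helix factors), the GC box (GGGCGG, or CCGCCC on the other strand), the TATA box (TATAAA), the MEF2 site and the CArG box of serum response factor, searched on both strands.
Dmd, chrX:82948620-82948869, plus strand: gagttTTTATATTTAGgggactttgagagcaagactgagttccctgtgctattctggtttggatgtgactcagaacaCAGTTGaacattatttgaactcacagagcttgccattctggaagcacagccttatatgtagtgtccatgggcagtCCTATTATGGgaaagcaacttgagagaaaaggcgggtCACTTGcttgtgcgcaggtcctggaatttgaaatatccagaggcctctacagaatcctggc
Sgcd, chr11:47379326-47379575, minus strand: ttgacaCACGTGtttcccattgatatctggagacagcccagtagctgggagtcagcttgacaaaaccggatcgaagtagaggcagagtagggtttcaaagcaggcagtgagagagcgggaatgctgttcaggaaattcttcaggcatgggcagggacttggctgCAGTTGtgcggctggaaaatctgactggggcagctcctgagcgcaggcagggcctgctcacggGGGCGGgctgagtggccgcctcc
Sgca, chr11:94976328-94976577, minus strand: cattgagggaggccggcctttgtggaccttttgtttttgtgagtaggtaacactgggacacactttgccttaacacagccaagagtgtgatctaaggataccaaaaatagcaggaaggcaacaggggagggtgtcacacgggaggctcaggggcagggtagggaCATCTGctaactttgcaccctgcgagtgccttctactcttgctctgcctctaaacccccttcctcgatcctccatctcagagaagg
The Dmd window shown, which ends at the base before the gene, held 2 E-boxes, 1 CArG box and 1 MEF2 site that overlapped a TATA box match on the opposite strand. The other Dmd window, before a start site at 85048295 within the gene, held 3 GC box matches. It held no E-box, MEF2 site or CArG box. Of all 32851 windows in the RefSeq table, 66.2% held an E-box, 12.4% a TATA box, 2.92% a MEF2 site and 1.47% a CArG box. The Sgcd window held 2 E-boxes and 1 GC box, the latter found in 32.7% of all windows, and its start site lies within the gene as GENCODE draws it. In the Sgca window 1 E-box was found. None of the 10 windows of the 7 genes held the N-box TTCCGG, a sequence known from synaptic promoters and present in 12% of all windows. The Utrn window lies before a start site at 12861735, within the gene. The bases before the Utrn gene as GENCODE draws it, which ends at 12869365 on the minus strand, were therefore not searched. Motif matches describe letters in a window and were not tested for binding.

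The libraries were made from poly-adenylated RNA, and the deposited values are counts per gene after division by the library's size factor, as the authors computed it, and are called normalized counts here. The recovered totals were between 23985356 and 33012497 counts, the size factors between 0.906 and 1.20, and the 10 most abundant genes took 18.8% to 26.2% of the counts. The markers of myofibres and of fast and slow fibres were counted in every library, and no marker of the other cell types was at 0 in any library. In whole muscle, fewer cells of a type and less RNA per cell cannot be told apart. Mouse 8 had the lowest slope of levels on transcript length and the lowest score for 6 of 14 marker lists (fibroblasts, tendon, smooth muscle and pericytes, satellite cells, adipocytes and blood), and main results that rest on that mouse are also given without it.

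Dystrophin, utrophin and α-dystrobrevin form the part of the complex on the inner side of the membrane. Normalized counts of Dmd were 6302 at the lowest, 9313 at the median and 10246 at the highest, with a mean of 8908 ± 1365 (SD, n = 8). Mouse 8 was lowest and mouse 5 highest, and the range of all 8 mice was 1.63-fold. Utrn had between 629 and 1303 normalized counts with a median of 1157, again with mouse 8 lowest, and mouse 1 highest. Mice 1 to 5 all had at least 1145 normalized counts of Utrn, and mice 6 to 8 had at most 903. Dtna, which encodes the α-dystrobrevin that binds dystrophin and the syntrophins, had 2071 at the lowest, 2558 at the median and 3934 at the highest. The highest value was again that of mouse 5, and the next was 2836 in mouse 6.

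Dag1 encodes both subunits of dystroglycan as a single precursor. It had 4497 normalized counts at the lowest, in mouse 8, 5323 at the median and 7304 at the highest, in mouse 5, with a mean of 5474 ± 858 (SD, n = 8).

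Of the sarcoglycans, Sgca (α) and Sgcb (β) varied least between the mice and Sgcd (δ) varied most of the 8 genes. Sgca ranged from 4088 over a median of 4657 to 5249 normalized counts and Sgcb from 3177 over 3711 to 3964, that is over 1.28-fold and 1.25-fold. Sgcd had 478, 351, 399, 404, 669, 415, 308 and 146 normalized counts in mice 1 to 8, a 4.6-fold range. Its lowest library held 133 counts, so that counting alone gives a coefficient of variation (CV) of 5.03% on average, against 37.5% observed. Sspn, for the tetraspan membrane protein sarcospan, had 1252 at the lowest, in mouse 4, 1581 at the median and 1813 at the highest, in mouse 2. Mouse 5 had the highest level of 6 of the 8 genes (all but Utrn and Sspn), and mouse 8 had the lowest of 4 (Dmd, Utrn, Dag1 and Sgcd).

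**Figure D1:**
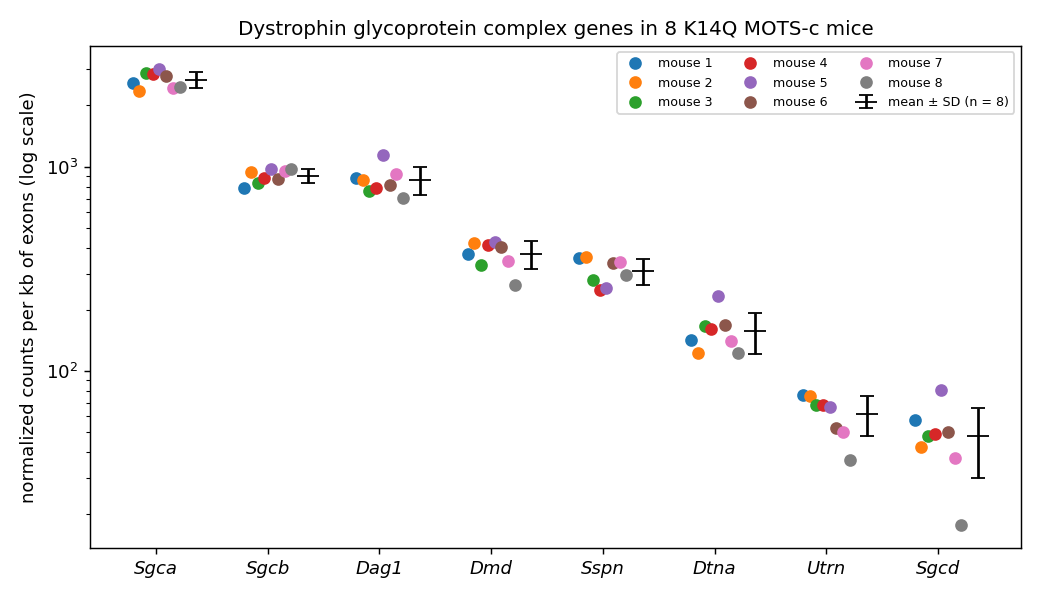
Normalized counts per kb of exons (y, log scale) of the 8 genes (x) in each of the 8 mice (coloured points), with the mean ± SD (n = 8) in black. Sgca is highest at 2668 and Sgcd lowest at 48.0, and the points of Sgcd spread widest, with mouse 8 below all others.

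Per kb of exons, Sgca was the most abundant at 2668 ± 246 normalized counts, followed by Sgcb at 904 ± 72.5, Dag1 at 861 ± 135, Dmd at 374 ± 57.3, Sspn at 310 ± 45.2, Dtna at 157 ± 35.4, Utrn at 61.9 ± 13.9 and Sgcd at 48.0 ± 18.0 (mean ± SD, n = 8). The median over all tested genes was 88.0, so that 6 of the 8 genes lay above it and Utrn and Sgcd below it. Sgca was above Sgcb in 8 of 8 mice by 2.95-fold, Dag1 above Dmd by 2.30-fold, Sspn above Dtna by 1.998-fold and Dtna above Utrn by 2.55-fold, each in 8 of 8 mice with exact sign-flip permutation p = 0.0078 (two-sided, the smallest that 8 mice allow, unadjusted over 7 neighbouring pairs). The other neighbours overlapped. Sgcb was above Dag1 in 6 of 8 mice (exact p = 0.34), Dmd above Sspn in 7 of 8 by 1.21-fold (exact p = 0.039) and Utrn above Sgcd in 7 of 8 by 1.35-fold (exact p = 0.023). The order depends on the length used where a gene has long alternative exons: per kb of the longest coding transcript, Sgcd (162) stood above Utrn (85.5) in 8 of 8 mice and Dtna (421) above Sspn (343) in 5 of 8, the reverse of the order by exons.

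Ratios of genes within a mouse do not depend on the scaling of the library. Per 100 copies of Dmd there were 16.5 ± 2.86 of Utrn per kb of exons (SD, n = 8), between 13.0 in mouse 6 and 20.6 in mouse 3, and 14.3 ± 2.47 per kb of the longest coding transcript, the other length used for each ratio here. Utrn was thus below Dmd in 8 of 8 mice. Sgcb stood at 34.2 ± 4.78 per 100 of Sgca, between 28.8 and 40.2, or 36.4 ± 5.09 per kb of the longest coding transcript. For Sgcd the figure was 1.77 ± 0.56 per 100 of Sgca, from 0.72 in mouse 8 to 2.68 in mouse 5, a 3.73-fold range in a ratio of subunits of the same complex. The width of that range rests on mouse 8, as the next lowest value was 1.54 in mouse 7. Per kb of the longest coding transcript this ratio was 5.94 ± 1.89, with the same range between mice. Dtna had 42.2 ± 7.89 per 100 of Dmd, or 71.0 ± 13.3 per kb of the longest coding transcript. Sspn had 11.8 ± 2.59 per 100 of Sgca, or 13.0 ± 2.85. The size of the ratios of Sgcd and Dtna thus depends on the length chosen.

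The spread between mice was compared with that of all tested genes. The median CV of the 8 genes was 15.5%, and the median of all 15135 tested genes was 15.6%, with 5% of genes below 6.95% and 5% above 36.8%. Sgcb (8.02%) and Sgca (9.23%) were among the steadier genes, at percentiles 9.05 and 14.7, whereas Sgcd (37.5%) was at percentile 95.3. Utrn (22.5%) and Dtna (22.6%) were at percentiles 75.3 and 75.7, and Dmd (15.3%), Dag1 (15.7%) and Sspn (14.6%) were near the middle. The counting error was between 1.07% and 5.03%, below the observed CV of each gene. edgeR's biological coefficient of variation lay above the trend at the gene's abundance for 3 genes, which were Utrn (20.8% against 16.1%), Sgcd (32.2% against 16.4%) and Dtna (19.4% against 16.8%). With the trends on GC content and length removed, the CV of Sgcd was 38.1%, while those of Dmd and Utrn were 8.43% and 14.8%. In 1 of the 8 genes, Dtna, the highest mouse stood apart by Dixon's gap, against 6% of all tested genes with such a mouse at either end.

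Whether the genes of the complex go together from mouse to mouse was examined with Pearson's r of log2(normalized count + 1) for the 28 pairs. The median r was 0.29, against -0.0012 over all pairs of tested genes, for which 5% of pairs lay below -0.69 and 5% above 0.70. Of the 28 pairs, 19 had r above 0. Without mouse 8 the median was 0.14, and with the trends of each library on GC content and transcript length removed it was also 0.14, with 15 pairs above 0. With plain library totals in place of size factors it was 0.51, with 20 pairs above 0. The closest pair was Sgca and Dtna, with r = 0.91 (exact permutation p = 0.00079) and Spearman's rho = 0.90 (exact p = 0.0046). It stayed between 0.89 and 0.93 when any 1 mouse was left out, was 0.90 without the 2 mice farthest from the median of Sgca, and was 0.81 after the trends were removed. In both genes mouse 5 was highest and mouse 2 lowest.

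Sgcd had the next values, with r = 0.83 to Dmd (exact p = 0.019, rho = 0.62, exact p = 0.11) and r = 0.79 to Utrn (exact p = 0.027, rho = 0.48, exact p = 0.24). Both rest on mouse 8, since without it r was 0.44 for Dmd and 0.35 for Utrn, and without the 2 mice farthest from the median of the first gene it was 0.52 and -0.045. With the trends removed r was 0.48 for Dmd (exact p = 0.23) and 0.64 for Utrn (exact p = 0.080). The exact p was also above 0.05 without mouse 5 or 7 for Dmd (0.054 and 0.052). For Utrn this was so without mouse 1 or 7 (0.052 and 0.092). Dmd and Utrn had r = 0.74 (exact p = 0.034, rho = 0.45, exact p = 0.27), 0.26 without mouse 8 and -0.11 after removal of the trends (exact p = 0.80). The exact p of this pair was also above 0.05 without mouse 2, 4 or 7 (0.074, 0.056 and 0.073). Among the sarcoglycans, Sgca and Sgcd had r = 0.65 (exact p = 0.060), or 0.86 with the trends removed (exact p = 0.0032), and the exact p was also under 0.05 without mouse 1 or 2 (0.045 and 0.036). Leaving out any other mouse gave an exact p between 0.056 and 0.28, with r = 0.49 without mouse 5. With library totals r was 0.57 (exact p = 0.13). Sgcb had r = -0.24 to Sgca (exact p = 0.55), a value whose direction depends on the scaling, since with plain library totals it was 0.55 (exact p = 0.13). To Sgcd it had r = -0.35 (exact p = 0.41), which was -0.078 with library totals. Without mouse 5 this value was -0.75 (exact p = 0.033), and without mouse 8 it was -0.012 (exact p = 0.98).

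The lowest of the 28 values belonged to Sgca and Sspn (r = -0.74, exact p = 0.046, rho = -0.81, exact p = 0.022), Dtna and Sspn (r = -0.62, exact p = 0.090, rho = -0.62, exact p = 0.11) and Utrn and Sgcb (r = -0.50, exact p = 0.21, rho = -0.60, exact p = 0.13). Mice 3, 4 and 5, which had the highest Sgca, had the 3 lowest values of Sspn. Without the 2 mice farthest from the median of the first gene, the 3 values of r were -0.53, -0.25 and -0.11. For Utrn and Sgcb r was -0.068 with plain library totals in place of size factors, and -0.75 with the trends removed (exact p = 0.029). For Dtna and Sspn it was -0.74 without mouse 8 (exact p = 0.040). With library totals, Sgca and Sspn had r = -0.33. Their exact permutation p was 0.052 with TMM factors (r = -0.73) and between 0.066 and 0.11 without any of mice 1, 2, 3, 4, 5 or 7, with r between -0.64 and -0.76.

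**Figure D2:**
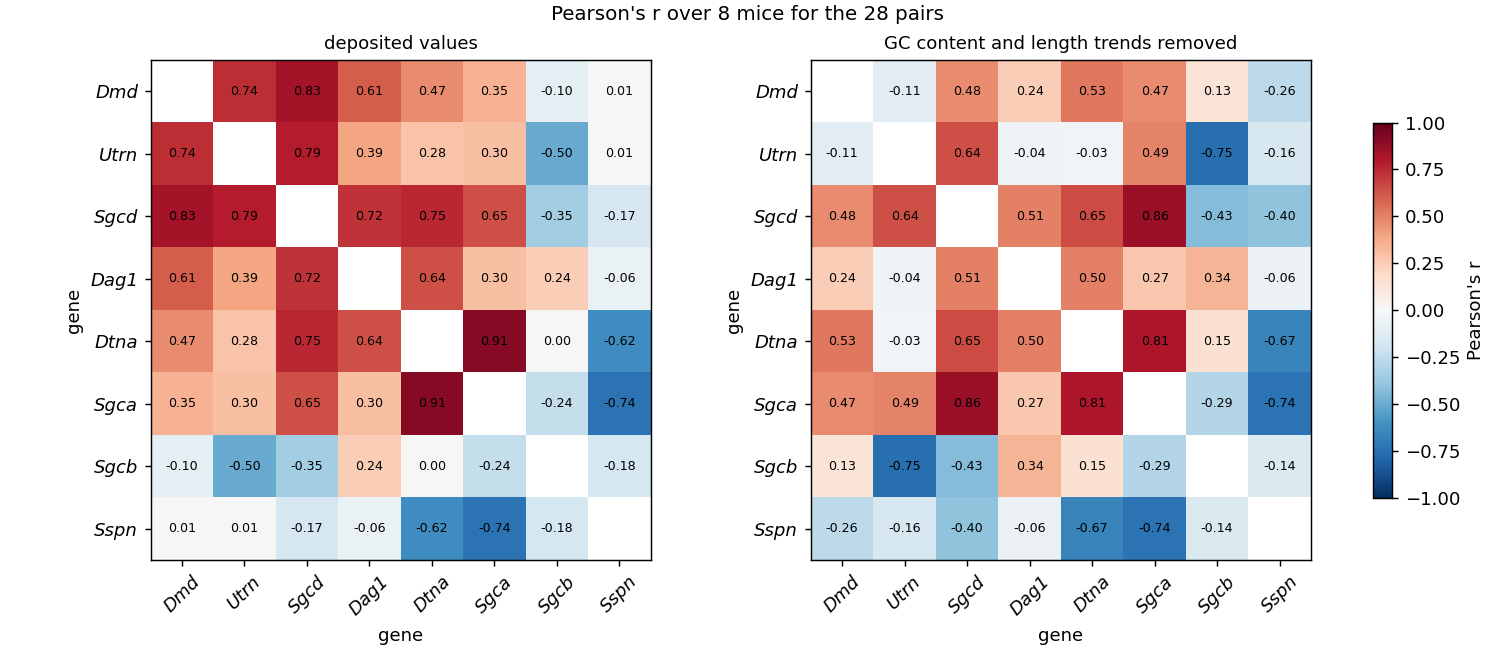
Pearson's r over 8 mice for the 28 pairs of genes, from the deposited values (left) and after removal of each library's GC content and length trends (right). Colour runs from blue (-1) to red (1). Sgca and Dtna are at 0.91 and 0.81, whereas Dmd and Utrn are at 0.74 on the left and -0.11 on the right.

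Of the 28 pairs, 7 (25.0%) lay outside the limits beyond which 5% of all gene pairs fall on either side, and 4 (14.3%) lay outside the limits computed likewise after removal of the trends. With library totals 3 pairs had the other sign of r, and with the trends removed 6 had it. For a test adjusted over all genes, every tested gene was fitted on the level of each of the 8 genes with limma. None of the 28 pairs was called in both directions at a Benjamini-Hochberg adjusted p under 0.05, with limma or with edgeR on the recovered counts. The smallest limma adjusted p was 0.064, for Sgcd fitted on Utrn (0.16 for Utrn fitted on Sgcd), and for Dtna fitted on Sgca it was 0.096 (0.44 for the reverse). Before adjustment, 6 pairs (21.4%) had p under 0.05 in both directions with either tool, where the share of all genes with such a p was between 5.17% and 19.3% with limma and between 5.23% and 18.9% with edgeR, depending on the gene fitted on. Over all genes, limma called 0% of genes with Dmd or Dag1, 2.7% with Utrn, 0.00661% each with Sgca and Sgcb, 0.0198% with Sgcd, 0.0529% with Dtna and 0.819% with Sspn. With edgeR the shares were 0% for Dmd, Sgca and Sgcb, 2.27% for Utrn, 0.0396% for Dag1, 0.0132% for Sgcd, 0.126% for Dtna and 0.74% for Sspn. The 409 genes called with Utrn by limma rest on mouse 8, since 0 were called without it (1453 had an unadjusted p under 0.05), and 0 were called after removal of the trends (2098 unadjusted).

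Dmd and Utrn have the longest coding transcripts of the 8 genes, at 14910 and 12382 bases, and the libraries differed in how levels ran with transcript length. The slope of each library's deviations, as log2 change per doubling of transcript length, was between -0.081 in mouse 8 and 0.044 in mouse 2. It went with Utrn at r = 0.94 (exact permutation p = 0.00035, rho = 0.90, exact p = 0.0046), with Dmd at 0.86 (exact p = 0.0082, rho = 0.71, exact p = 0.058) and with Sgcd at 0.79 (exact p = 0.029, rho = 0.55, exact p = 0.17). Leaving out the 2 mice farthest from the median slope gave 0.81, 0.53 and 0.66, and leaving out mouse 8 alone gave 0.84 (exact p = 0.0052), 0.62 (exact p = 0.15) and 0.37 (exact p = 0.45). For Sgcb r was -0.31 (exact p = 0.46). The slope on GC content went with Sgca at r = 0.77 (exact p = 0.011) with Sspn at -0.73 (exact p = 0.023) and with Dtna at 0.67 (exact p = 0.084, rho = 0.81, exact p = 0.022). Sgca and Dtna, the closest pair, thus both had r above 0 with the GC content slope of the library. These are 7 of 16 relations computed after the values had been seen, their p-values are unadjusted, and the part of the trends in the levels was not tested.

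**Figure D3:**
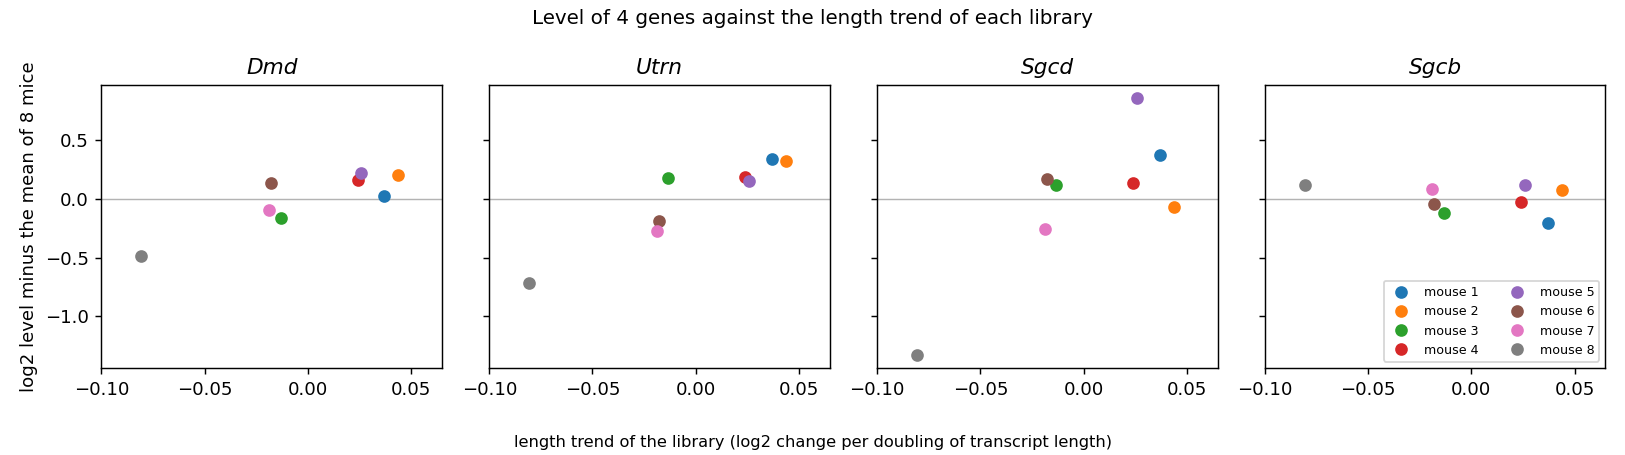
Level of Dmd, Utrn, Sgcd and Sgcb in each mouse (y, log2 level minus the mean of 8 mice) against the length trend of its library (x, log2 change per doubling of transcript length), with points coloured by mouse. Mouse 8, at -0.081 on the x axis, is lowest for Dmd, Utrn and Sgcd but not for Sgcb.

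The genes were next set beside marker lists of the cell types that whole muscle can hold, each list scored as the mean z-score of its tested genes. Utrn, which is not confined to muscle fibres, went with fibroblast markers at r = 0.86 (limma adjusted p = 0.066), adipocyte markers at 0.86 (limma adjusted p = 0.13), endothelial markers at 0.81 (limma adjusted p = 0.23), macrophage markers at 0.80 (limma adjusted p = 0.15) and tendon markers at 0.78 (limma adjusted p = 0.17). Of the fibroblast markers 8 of 8 had r above 0 with Utrn, and their summed level ran from 10294 to 19186 normalized counts over the mice. With the trends removed, Utrn had r = 0.79 to fibroblast and 0.87 to adipocyte markers. Without mouse 8, lowest for Utrn and for the fibroblast, adipocyte and tendon scores, its values were 0.76 for fibroblast, 0.81 for adipocyte, 0.90 for endothelial, 0.70 for macrophage and 0.57 for tendon markers. The value for macrophage markers was 0.26 without the 2 mice farthest from the median score. Dmd, a gene of the fibre, had r = 0.89 to tendon markers and 0.81 to fibroblast markers (limma adjusted p = 0.15 and 0.16), 0.82 and 0.65 without mouse 8, and 0.36 and 0.17 after the trends were removed. Tendon markers varied most in sum, from 905 to 6158 normalized counts, and had r = 0.71 with Sgcd (limma adjusted p = 0.21), or 0.38 without mouse 8.

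Fibre markers had values of opposite sign for Sgca and Sspn. Sgca had r = -0.72 to fast fibre markers, of which 0 of 8 had r above 0, and Sspn had 0.65, with 8 of 8 above 0 (limma adjusted p = 0.40 and 0.33). Without the 2 mice farthest from the median score they were -0.79 and 0.35. Sspn also had r = 0.86 with the top-10 share, the percentage of counts taken by the 10 most abundant genes of a library (limma adjusted p = 0.10), and Sgca had -0.72 (limma adjusted p = 0.35). Markers of the neuromuscular junction, where utrophin protein is concentrated, had r = -0.59 with Utrn, -0.64 with Sgcd and -0.59 with Dag1 (limma adjusted p = 0.53, 0.47 and 0.60). For the list of denervation and atrophy markers, which holds the ubiquitin ligases Trim63 and Fbxo32, r was -0.68 with Dag1, -0.60 with Sgcd and -0.55 with Utrn (limma adjusted p = 0.69 for each), while its summed level differed 1.28-fold over the mice. Without mouse 8 these were -0.56, -0.33 and -0.24. Blood markers, whose sum differed 4.01-fold, had r = 0.74 with Dtna and 0.66 with Sgca (limma adjusted p = 0.67 and 0.72), and 0.17 and -0.0059 without the 2 mice farthest from the median score. None of the relations of the 8 genes with the 14 lists, the library total and the top-10 share (128 in all) was called by limma or edgeR, and 24 (18.8%) had an unadjusted p under 0.05 with limma and 19 (14.8%) with edgeR. Over all genes, that share was between 2.62% and 17.1% with limma and between 2.51% and 16.5% with edgeR, depending on the list or measure. Without mouse 3, limma called 2, of Utrn with fibroblast and with tendon markers. What part other cells have in the levels of Utrn was not tested.

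Over all genes, limma called 1.08% with fast fibre markers, 0.701% with fibroblast, 0.205% with tendon and 0.172% with macrophage markers, 0.0198% with those of the neuromuscular junction, 0.00661% with slow fibre markers, 1.93% with the top-10 share and 0% with the other lists and the library total. The edgeR shares were 1.14%, 0.436%, 0.0991%, 0.0198%, 0.00661%, 0.00661%, 1.82% and 0% in the same order.

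**Figure D4:**
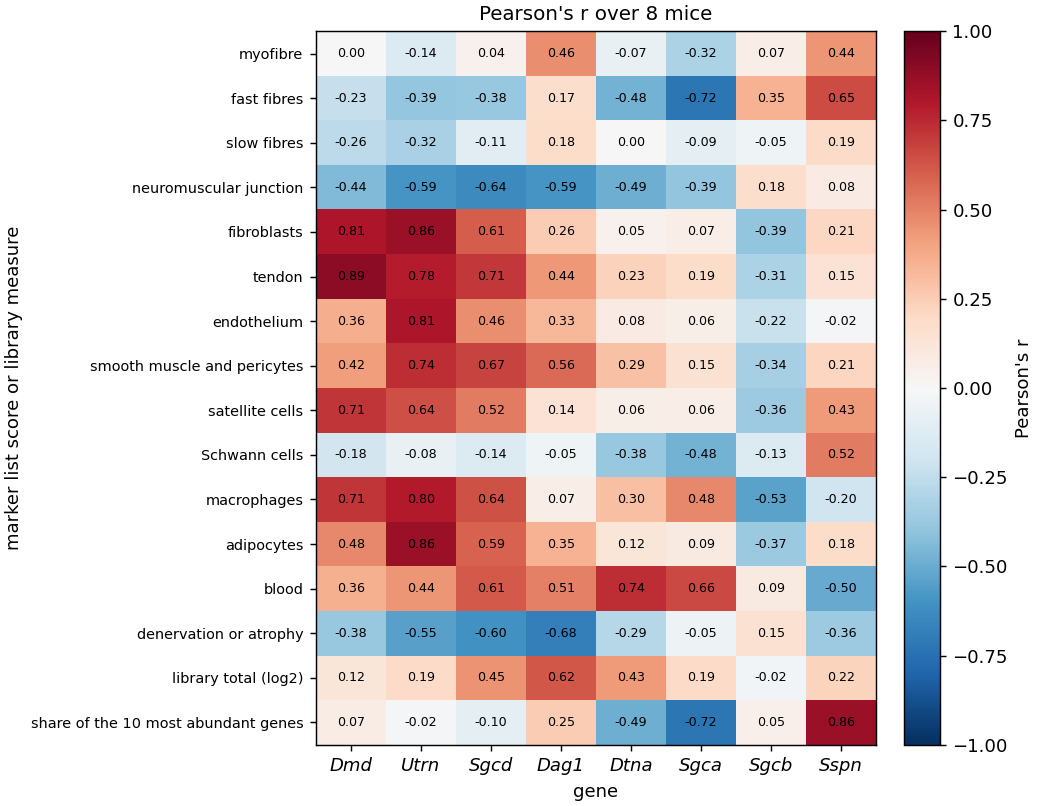
Pearson's r over 8 mice between each of the 8 genes (x) and the score of 14 marker lists and 2 library measures (y), coloured from blue (-1) to red (1). Dmd, Utrn and Sgcd are red for fibroblasts, tendon and macrophages, at 0.61 to 0.89, while Sgcb is blue for them, at -0.31 to -0.53. Without mouse 8 the values of Sgcd for the 3 lists are 0.16 to 0.38 and those of Sgcb -0.073 to -0.40.

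Beyond the listed genes, 35 other genes of the pathway were examined, of which 31 passed the count minimum. Sgcz (ζ-sarcoglycan) was at 0 counts in every library, and Sntg1, Sntg2 (γ-syntrophins) and the glycosyltransferase gene Large2 had at most 1, 5 and 10 counts in a library. The ε-sarcoglycan Sgce had 16.6 ± 2.69 normalized counts per kb of exons (SD, n = 8), below each of the 3 sarcoglycans described above. Sntb1 and Sntb2, the β-syntrophins, stood at 33.7 ± 10.3 and 27.4 ± 6.49. The most abundant of the matrix ligands was the proteoglycan gene Bgn at 270 ± 82.4, and that of the cytoskeletal and signalling partners was the intermediate filament gene Des at 30193 ± 1965. Of the enzymes that build the laminin-binding sugar of α-dystroglycan, B3galnt2 was the most abundant at 496 ± 108, and the 15 tested enzymes had a median CV of 11.48%.

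**Figure D5:**
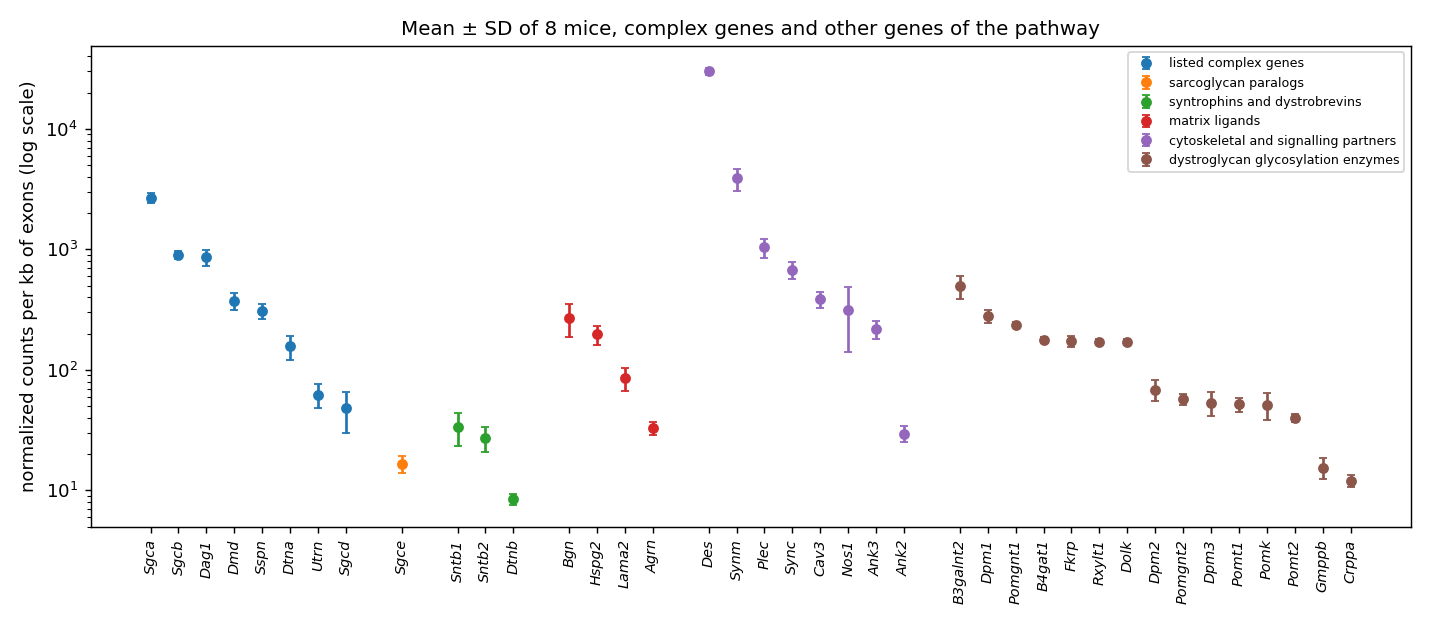
Normalized counts per kb of exons (y, log scale, mean ± SD of 8 mice) of the 8 listed genes and the 31 tested genes of the pathway (x), coloured by group. Des is highest at 30193 and Sgce stands at 16.6.

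Of the 31 genes, 1 was called by limma with any of the 8 genes. This was Lama2 in the fit on Utrn, where 1 of 31 is close to the 2.7% called over all genes, so that the count says nothing about the pathway. Lama2, which encodes the laminin chain to which α-dystroglycan binds in muscle, was higher by 0.29 ± 0.06 (SE) on the log2 scale per SD of Utrn (limma adjusted p = 0.034, edgeR adjusted p = 0.043), with r = 0.88. Lama2 had 1636, 1713, 1199, 1581, 1690, 1337, 1157 and 899 normalized counts in mice 1 to 8, so that mouse 8 was lowest for both genes. Without mouse 8 the slope was 0.17 (limma adjusted p = 0.44), and the adjusted p was also above 0.05 without mouse 1, 2, 4 or 7 (0.071, 0.087, 0.054 and 0.074 with limma), where the slopes of 0.30, 0.29, 0.30 and 0.30 were near that of all 8 mice. The slope was 0.15 with the trends removed (limma adjusted p = 0.31). Lama2 also went with Dmd at r = 0.92 (slope 0.31, limma adjusted p = 0.12), or 0.36 with the trends removed. With Sgcd r was 0.82 (limma adjusted p = 0.14), so that the relation was not particular to Utrn. Pomk, the kinase that phosphorylates the sugar chain of dystroglycan, went with Sspn at r = 0.85 and was not called (limma adjusted p = 0.093), but with the trends removed it was (limma adjusted p = 0.048), in a fit that called 173 of 15134 genes (1.14%).

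Before adjustment, 9 of the 31 genes (29.0%) had a limma p under 0.05 with Dmd, against 14.3% of all genes, and 11 (35.5%) with Sgcd, against 15.9%. Utrn had 6 (19.4% against 19.3%), Dag1 6 (19.4% against 9.05%), Sspn and Dtna 4 each (12.9% against 15.0% and 9.38%), and Sgca and Sgcb 1 each (3.23% against 12.6% and 5.17%). With the trends removed, Dmd had 2 (6.45% against 1.98%), Sgcd 7 (22.6% against 12.46%), Sspn 5 (16.1% against 16.2%), Dag1 4 (12.9% against 7.92%), Sgca 4 (12.9% against 14.6%), Utrn and Dtna 3 each (9.68% against 13.9% and 8.52%) and Sgcb 2 (6.45% against 8.72%). These counts describe the list, and since 8 libraries are shared by all fits they are not independent.

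For each of the 8 genes, the 3 protein-coding genes with the highest r over the 8 mice were taken from 12353 tested genes. With so many genes and 8 mice, values over 0.95 are found for each gene, and they are given as a description. For Dmd these were Arf3, Ldlrad4 and Mprip (r = 0.98, 0.98 and 0.97), which with the trends removed were at 0.66, 0.50 and 0.88. Utrn went with Cldn1, Igfbp6 and Ptpn13 (0.99, 0.98 and 0.98), at 0.96, 0.93 and 0.96 with the trends removed. The nearest to Dag1 were Fbxl17, Stau2 and AW011738 (0.99, 0.99 and 0.98). Sgca had Ttc38, Zfp775 and Eif2b1 (0.96, 0.96 and 0.95), and Sgcb had Snapin, Tspyl2 and Cavin4 (0.98 each). Sgcd had Adgre5, Prg4 and Thbd (0.98 each), among which Prg4, the joint lubricant lubricin, averaged 1691 ± 1120 normalized counts (SD, n = 8). Dtna was followed by Enc1, Hspb7 and Mcur1 (0.98, 0.95 and 0.95), and Sspn by Tbc1d19, Castor1 and Lin9 (0.98, 0.98 and 0.97).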

How the data were processed

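RNA-seq of muscle from 8 mice of 1 condition was used. Per the submitters' processing notes and the study's methods, the authors checked and trimmed reads with FastQC and fastp, mapped them to GRCm38.p6 with STAR, counted reads per gene and normalized with DESeq2. The values they deposited are a signal in which counts are already scaled by size factors, because 100% of them were whole multiples of what 1 read is worth in the library (tolerance 0.01 of a read), which gave back the counts. Use of strand and the annotation release are not given in the sources used here. Reads of the antisense gene Gm47898, with a mean of 24.8 normalized counts, share 90 exon bases with Dtna and could not be told apart if strand was ignored, and those of Sspnos share 69 with Sspn (mean 0.12). The counts have no molecular identifiers, so counting errors cover counting only, and the totals make that error small for genes far above 10 counts.

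Of 55487 identifiers, 55227 were found in GENCODE M21, which gave symbols, positions and lengths. Genes under 10 counts in any library were not tested. limma 3.58.1 (lmFit, eBayes with trend) fitted log2(value + 1), with a pseudocount of 1, of every tested gene on the level of 1 gene, the score of 1 marker list (the 8 genes left out) or 1 library measure, scaled to SD 1, with Benjamini-Hochberg adjustment over all tested genes. A pair counted as called at an adjusted p under 0.05 in both directions. edgeR 4.0.16 (quasi-likelihood) on the recovered counts was the alternative, with TMM factors, library totals, DESeq2 1.42.0 size factors, a pseudocount of 5, the count minimum lowered to a count in at least 1 library, removal of GC content and length trends, Spearman's rho and leaving out each mouse. Relations with the slopes on length and GC content, those with marker lists without mouse 8, and the alternatives for the pair of Dmd and Utrn and those among sarcoglycans were added after seeing the data. Permutation tests enumerated 40320 pairings or 256 sign patterns, two-sided. On simulated data of 15135 genes with 200 changed, limma recovered 82% at a slope of 0.5 and 100% at 1.0, and called 0.0737% of the unchanged genes. Some genes of the pathway lists are not reported here. The members and lists were chosen with earlier results of these data known. The genes named were the 8, for each the 3 protein-coding genes of highest r, the 3 highest and 3 lowest pairs, and of the pathway lists those called, the most abundant and those under 10 counts. Sgce, Sntb1, Sntb2, Pomk, the genes with 1 mouse apart, the pair of Dmd and Utrn and those among sarcoglycans were added after their values were seen. Promoter sequences are from RefSeq (GRCm38.p6). R 4.3.3, Python 3.11.15, numpy 2.4.6, scipy 1.17.1 and pandas 2.3.3 were used.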

Additional observations from a re-analysis of the deposited data

Results flagged for a closer look

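In 6 of 59 sets of 8 values, covering the 8 genes of the complex, the 31 tested genes of the pathway, ratios and marker scores, 1 mouse stood apart by Dixon's gap, which is the distance of the extreme mouse to its neighbour over the whole range. Chance flags about 1 in 20 groups, here 2.95, and 6% of all tested genes had such a mouse. The sets come from the same 8 libraries and are not independent. The highest mouse stood apart for Dtna (gap 0.590), with mouse 5 at 3934 normalized counts and the other mice between 2071 and 2836. With TMM factors the gap was 0.575, and without the trends on GC content and length it was 0.497, no longer past the critical value. Mouse 5 was also highest for Nos1, which encodes a nitric oxide synthase of the complex (gap 0.690, with 8050 normalized counts against at most 3754 in the others), and for Ank3, an ankyrin gene (gap 0.606, 10428 against at most 8118). In the same mouse, B3galnt2 (gap 0.624, 1653 against at least 3022) and Pomgnt2 (gap 0.529, 128 against at least 162), both glycosyltransferase genes of the dystroglycan sugar, were at their lowest. Pomt1, for an enzyme of its first step, was lowest in mouse 8 (gap 0.556, 232 against at least 319). The cause was not tested for any of these.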

How the results depend on the processing

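Neighbouring genes were paired within a mouse in the sign-flip tests. No pairing between groups was possible because all 8 mice belong to 1 group. Of 318 values recomputed under an alternative, 279 kept their direction and their side of the threshold or moved by less than the spread, 29 lost an unadjusted or adjusted p under 0.05 in the same direction, 6 gained one, 2 moved and 2 changed sign. The latter were r of Dmd and Utrn, at -0.11 with the trends removed, and r of Sgca and Sgcb, at 0.55 with library totals, and the cause was not tested. With plain library totals the median r of the 28 pairs was 0.51 in place of 0.29, and when each mouse was left out it was between 0.14 (without mouse 8) and 0.39. The relations with marker lists called by limma ranged from 0 to 2 when each mouse was left out, with 2 without mouse 3, and the cause was not tested. The median CV was between 13.3% and 16.8% and the Utrn ratio per 100 Dmd between 15.9 and 17.0 without 1 mouse. None of the 88 mean counts moved by more than the SD, but leaving out 1 of 8 mice cannot move a mean that far. The same holds for the Utrn ratio, so these values without 1 mouse could only count as kept among the 318. The median r and CV without 1 mouse were judged against a spread computed from those same values. Of 70 values of r for the 5 named pairs with an exact permutation p under 0.05, 46 kept such a p and 24 lost it, and of 70 values for the 5 named pairs without one, 6 gained it. Genes called with Utrn were 409 with limma and 344 with edgeR, 351 with the minimum lowered to a count in at least 1 library, 118 to 366 without 1 of mice 1 to 7 and 0 without mouse 8. Depth limits genes near 10 counts, and 8 libraries of 1 condition limit all relations between mice.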
